A study of Homo sapiens with 6 samples.

Results

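Transcripts of 10 nuclear genes that encode mitochondrial chaperones and proteases were followed across 6 RNA-seq libraries of 22Rv1, a human cell line established from a prostate carcinoma. The genes were taken by symbol from the 20297 genes of the table, and all 10 were present and passed the filter on low values, a TPM (an expression level corrected for transcript length and library size) of 1 or more in no fewer than 2 libraries. They comprise 4 chaperone genes (HSPD1, HSPE1, HSPA9 and TRAP1) and 6 protease genes (LONP1, CLPP, CLPX, YME1L1, AFG3L2 and SPG7). The 3 groups of 2 libraries each were vehicle, Drug_0120 (0120-0018 in the treatment protocol) and Drug_CN27. The labels present both compounds as small-molecule inhibitors of the histone variant H1-10, each used at its IC50, an inhibitory concentration. Neither the concentration nor the duration is stated, so whether the doses match is not known. A single cell line stands behind all groups.

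Proteins imported into mitochondria are folded and quality-controlled by their own machinery. HSPA9, the mitochondrial Hsp70, pulls precursors through the inner membrane and passes them to the chaperonin, a barrel of HSPD1 (Hsp60) capped by HSPE1 (Hsp10), while TRAP1 is the mitochondrial Hsp90. In the matrix, LONP1 and the ClpXP complex, in which the unfoldase CLPX feeds the peptidase CLPP, degrade damaged or unneeded proteins. In the inner membrane, YME1L1 faces the intermembrane space, and AFG3L2, alone or with SPG7 (paraplegin), faces the matrix. When folding in the organelle is disturbed, a mitochondrial unfolded protein response can raise several of these genes, and ATF4, ATF5 and DDIT3 (CHOP) are among the factors linked to it in mammals.

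Members did not move as a block. HSPD1, HSPE1, TRAP1, CLPP and AFG3L2 fell with both compounds, HSPA9 and CLPX rose with both, and LONP1 fell with Drug_0120 and rose with Drug_CN27. YME1L1 rose and SPG7 fell with Drug_CN27, and neither passed the test with Drug_0120. Under the limma test described below, 2 members were called higher and 6 lower with Drug_0120, against 36.0% and 45.5% of all 13606 tested genes (81.5% in either direction). With Drug_CN27, 4 were called higher and 6 lower, against 43.7% and 26.6% of all tested genes (70.4% in either direction). A change of at least 2-fold was called for 0 members upward and 2 downward (TRAP1 and CLPP) with Drug_0120, against 11.5% and 20.2% of tested genes, and for 0 in either direction with Drug_CN27, against 7.33% and 4.82%. TRAP1 was under 2-fold without Drug_0120 replicate 1 (-0.99 log2), and with a correction for transcript GC content both were (TRAP1 -0.61, CLPP -0.92). In every called case the libraries of the groups did not overlap, which held for 40.8% (higher) and 50.0% (lower) of tested genes with Drug_0120 and for 51.8% and 32.8% with Drug_CN27. Since so many genes were called, the size and direction of each member carry more than its call.

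Start-site sequences are shown for the paired chaperonin genes, which fell together, and for HSPA9 and LONP1, which rose with Drug_CN27 and share a motif with them. RefSeq windows of 250 bases before to 50 after a transcription start (GRCh38.p14) were matched by symbol for 8 of the 10 members. HSPD1 and HSPE1 lie head to head on chromosome 2, with starts 105 bases apart, so the HSPE1 window also holds the HSPD1 start. Capitals mark matches, on either strand, to CACGTG (the E-box, bound by MYC and related factors), to GAANNTTC or TTCNNGAA (cores of the heat shock element) or to TGATGNAA (a composite element read by ATF4 with C/EBP factors). The windows are given 5′ to 3′ on the strand of the gene.
HSPE1, chr2:197500129-197500428, plus strand: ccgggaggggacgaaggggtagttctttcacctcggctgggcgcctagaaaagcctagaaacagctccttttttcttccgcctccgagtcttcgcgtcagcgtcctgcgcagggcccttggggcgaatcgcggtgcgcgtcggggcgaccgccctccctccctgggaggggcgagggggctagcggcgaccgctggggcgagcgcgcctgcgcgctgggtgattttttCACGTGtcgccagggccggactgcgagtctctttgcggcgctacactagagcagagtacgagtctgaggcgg
HSPD1, second start, chr2:197499791-197500090, minus strand: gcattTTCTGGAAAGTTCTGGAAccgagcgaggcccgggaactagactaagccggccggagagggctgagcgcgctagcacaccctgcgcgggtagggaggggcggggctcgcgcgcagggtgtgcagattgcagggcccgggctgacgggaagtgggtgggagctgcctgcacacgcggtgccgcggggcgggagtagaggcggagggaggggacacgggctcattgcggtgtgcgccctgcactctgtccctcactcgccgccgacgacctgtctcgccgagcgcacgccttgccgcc
HSPA9, chr5:138575352-138575651, minus strand: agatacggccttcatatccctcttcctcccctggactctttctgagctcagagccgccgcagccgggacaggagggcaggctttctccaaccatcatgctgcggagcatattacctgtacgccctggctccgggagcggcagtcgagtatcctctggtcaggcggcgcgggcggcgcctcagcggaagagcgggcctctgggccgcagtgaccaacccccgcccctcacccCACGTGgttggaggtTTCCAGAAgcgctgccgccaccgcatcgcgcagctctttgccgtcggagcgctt
LONP1, chr19:5720097-5720396, minus strand: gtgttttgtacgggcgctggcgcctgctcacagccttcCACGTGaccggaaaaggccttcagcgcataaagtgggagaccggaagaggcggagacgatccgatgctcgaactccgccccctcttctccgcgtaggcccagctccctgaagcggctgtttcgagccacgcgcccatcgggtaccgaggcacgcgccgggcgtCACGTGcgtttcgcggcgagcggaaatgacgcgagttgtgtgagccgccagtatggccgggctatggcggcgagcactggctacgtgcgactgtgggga

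An E-box was found in the windows of HSPD1 and HSPE1 (the same 6 bases, read from both genes), of HSPA9 and, at 2 places, of LONP1, while 7.26% of the 35116 RefSeq windows of this length hold one. Heat shock cores were found in the second HSPD1 window, where 3 matches overlap in 1 run, and across the start of HSPA9; 6.77% of all windows hold GAANNTTC and 7.74% hold TTCNNGAA. TGATGNAA was found in none of the members' windows and is in 3.62% of all windows. No searched motif was found in the windows of TRAP1, CLPX, AFG3L2 or SPG7. These matches describe letters in the reference and not binding in these cells.

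The data behind these values were limited in a few ways. The listed genes did not hold all of the TPM of a library: the part outside the table was 18.1% to 19.3% in vehicle, 28.0% to 28.8% with Drug_0120 and 18.3% to 19.6% with Drug_CN27; its part in the results was not tested beyond the scaling alternatives. The depth is unknown because TPM keeps none. The median tested gene differed by -0.10 log2 with Drug_0120 and by 0.15 with Drug_CN27, and median-of-ratios scaling, which centres each library on the typical gene, brought these to 0.0036 and 0. With that scaling, the calls over all genes went from 4903 higher and 6189 lower to 5561 and 5635 with Drug_0120, and from 5948 and 3624 to 4582 and 4732 with Drug_CN27. All 10 luminal prostate markers reached 1 TPM, and their sum was 2408 to 2431 TPM in vehicle, 1482 with Drug_0120 and 2711 with Drug_CN27. Of 5 leukocyte markers 2 reached 1 TPM and CD3E was at 0, with sums of 1.28 to 1.92 TPM in vehicle, 2.58 to 3.11 with Drug_0120 and 0.633 to 0.937 with Drug_CN27, and of the endothelial markers CDH5 was at 0 and VWF at most 0.0124 TPM. Of 4 fibroblast markers, 3 reached 1 TPM, with list sums of 29.9 to 31.3 TPM in vehicle, 28.1 to 29.4 with Drug_0120 and 25.1 to 27.2 with Drug_CN27, led by LUM and COL1A1; their part in the results was not tested.

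In vehicle, the chaperones were the most abundant members. HSPD1 stood first at 1174 ± 24.4 TPM (SD, n = 2, as for all means here), within the top 0.581% of tested genes, followed by HSPA9 (440.0 ± 5.98), HSPE1 (379.5 ± 17.4) and TRAP1 (282.7 ± 5.04). Among the proteases, LONP1 (210.4 ± 11.2 TPM) and CLPP (193.7 ± 11.2) lay close together, with the lower LONP1 library at 202.4 and the higher CLPP library at 201.6. AFG3L2 (104.2 ± 0.103), YME1L1 (89.8 ± 2.81), SPG7 (62.2 ± 1.005) and CLPX (32.1 ± 0.881) followed. Every neighbour in this order was separated in both libraries. With Drug_0120, SPG7 and AFG3L2 overlapped (58.7 and 62.4 TPM against 60.1 and 58.0). With Drug_CN27, YME1L1 and CLPP overlapped (131 and 117.1 TPM against 107 and 117.1), HSPA9 passed HSPD1 to stand first and LONP1 stood above HSPE1 and TRAP1.

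**Figure D1:**
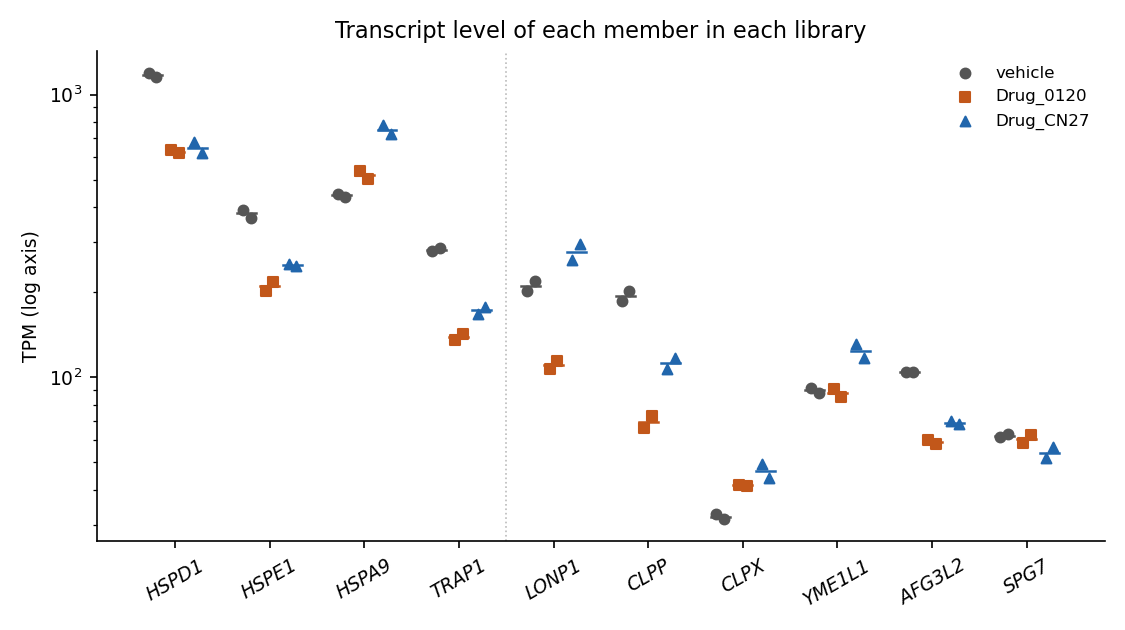
TPM (log axis) of each member in each library, with a short line at each group mean; chaperones are left of the dotted line and proteases right of it. HSPD1 is near 1174 TPM in vehicle and near 627 and 649 TPM with the compounds, while LONP1 lies below its vehicle libraries with Drug_0120 and above them with Drug_CN27.

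Among the chaperones, both genes of the chaperonin pair fell with both compounds. HSPD1 was at 1191 and 1157 TPM in vehicle, at 634 and 620 TPM with Drug_0120 and at 677 and 622 TPM with Drug_CN27. Both treated groups lay far below vehicle and overlapped each other. The log2 difference from vehicle, on the log2(TPM + 1) scale used throughout, was -0.90 ± 0.06 (SE) with Drug_0120 and -0.85 ± 0.06 with Drug_CN27 (limma adjusted p = 1.24e-06 and 5.67e-06).

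HSPE1 was at 392 and 367 TPM in vehicle, at 201 and 217 TPM with Drug_0120 and at 252 and 247 TPM with Drug_CN27. None of the 3 groups overlapped. The differences were -0.86 ± 0.06 and -0.60 ± 0.06 (limma adjusted p = 2.1e-06 and 4.26e-05), and quantile normalization brought the first to -0.53. HSPD1 and HSPE1 have 22 and 28 pseudogenes in RefSeq, and HSPE1 overlaps the read-through gene HSPE1-MOB4 (2.81 and 2.12 TPM in vehicle, 8.34 and 17.5 with Drug_0120, 3.82 and 4.80 with Drug_CN27). Their values are therefore uncertain.

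HSPA9 went the other way. It was at 444 and 436 TPM in vehicle, at 536 and 503 TPM with Drug_0120 and at 779 and 726 TPM with Drug_CN27, and the groups did not overlap. The rise was 0.24 ± 0.06 log2 with Drug_0120 and 0.77 ± 0.06 with Drug_CN27 (limma adjusted p = 0.00524 and 9.9e-06). The Drug_0120 value was 0.36 with median-of-ratios scaling and 0.53 with quantile normalization, and it did not pass without Drug_0120 replicate 1 (0.19, adjusted p = 0.0516). HSPA9 has 2 pseudogenes in RefSeq.

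TRAP1 fell from 279 and 286 TPM in vehicle to 135 and 142 TPM with Drug_0120 and to 167 and 178 TPM with Drug_CN27. All vehicle libraries lay above all treated libraries. The differences were -1.02 ± 0.06 and -0.71 ± 0.06 (limma adjusted p = 5.21e-07 and 1.3e-05). After a correction for transcript GC content the first was -0.61, with TRAP1 transcripts at 57.9% GC. TRAP1 overlaps DNASE1, a nuclease gene at 24.04 to 34.2 TPM, in RefSeq.

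Summed over the 4 chaperones, vehicle held 2276 ± 42.8 TPM, Drug_0120 1495 ± 17.1 TPM and Drug_CN27 1823 ± 72.7 TPM. As a share of the table these sums were 0.280% ± 0.0081, 0.209% ± 0.0042 and 0.225% ± 0.011. HSPD1 lost more TPM than HSPE1 and TRAP1 together with either compound, and HSPA9 ran against them.

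Among the proteases, LONP1 was the only member called in opposite directions by the 2 compounds as deposited. With the correction for transcript GC content, YME1L1 was also called lower with Drug_0120 (-0.092) and higher with Drug_CN27 (0.19). SPG7 was then called higher with Drug_0120 (0.31) and lower with Drug_CN27. LONP1 was at 202 and 218 TPM in vehicle, at 107 and 114 TPM with Drug_0120 and at 260 and 295 TPM with Drug_CN27. Each group stood apart from both others. It fell by 0.92 ± 0.08 log2 with Drug_0120 and rose by 0.40 ± 0.08 with Drug_CN27 (limma adjusted p = 4.95e-06 and 0.00154). LONP1 transcripts are GC-rich (61.9%), and with the GC correction the fall was -0.39 and the rise 0.45. Median-of-ratios scaling gave a rise of 0.23 (adjusted p = 0.0442). LONP1 overlaps RPL36, a ribosomal protein gene, in RefSeq, and no strand setting is stated, so the LONP1 values are uncertain. RPL36 was at 810 and 813 TPM in vehicle, 734 and 779 with Drug_0120 and 847 and 991 with Drug_CN27. It thus lay below and above vehicle under the same compounds as LONP1, and its part in the LONP1 values was not tested.

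CLPP, the peptidase of ClpXP, had the largest difference of the 10 members with Drug_0120 as deposited. It was at 186 and 202 TPM in vehicle, at 66.4 and 73.0 TPM with Drug_0120 and at 107 and 117 TPM with Drug_CN27, with no overlap between groups. The differences were -1.46 ± 0.07 and -0.78 ± 0.07 (limma adjusted p = 2.83e-07 and 3.09e-05). CLPP transcripts are at 62.1% GC, and the first value was -0.92 with the GC correction, where HSPD1 was at -0.95.

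CLPX, the unfoldase partner of CLPP, rose. It was at 32.7 and 31.5 TPM in vehicle, at 41.6 and 41.2 TPM with Drug_0120 and at 49.4 and 44.2 TPM with Drug_CN27. All treated libraries lay above vehicle, and the 2 compounds did not overlap. The rises were 0.36 ± 0.07 and 0.53 ± 0.07 log2 (limma adjusted p = 0.00169 and 0.000259), and the second was 0.26 with the GC correction.

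YME1L1 was at 91.8 and 87.8 TPM in vehicle, at 90.6 and 85.4 TPM with Drug_0120 and at 131 and 117 TPM with Drug_CN27. The first 2 groups overlapped, and Drug_CN27 stood above both. The difference was -0.029 (95% interval -0.19 to 0.13) with Drug_0120, which did not pass, and 0.46 ± 0.07 with Drug_CN27 (limma adjusted p = 0.71 and 0.000459). The Drug_0120 value turned positive with median-of-ratios scaling (0.093) and quantile normalization (0.18), and with the GC correction it passed as lower (-0.092, adjusted p = 0.0449). The Drug_CN27 value was 0.29 with median-of-ratios scaling and 0.19 with the GC correction. YME1L1 has 1 pseudogene in RefSeq.

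AFG3L2 fell from 104.3 and 104.1 TPM in vehicle to 60.1 and 58.0 TPM with Drug_0120 and to 69.9 and 68.2 TPM with Drug_CN27. The groups did not overlap, and the libraries within each group lay close together. The differences were -0.81 ± 0.06 and -0.59 ± 0.06 (limma adjusted p = 1.85e-06 and 3.25e-05). AFG3L2 has 1 pseudogene and overlaps TUBB6, a tubulin gene, in RefSeq. TUBB6 itself was at 130.0 and 124.7 TPM without compound, at 62.3 and 58.5 TPM under Drug_0120 and at 54.5 and 61.9 TPM under Drug_CN27. How reads were divided between the 2 genes was not examined, so the AFG3L2 values are uncertain.

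SPG7 was at 61.5 and 62.9 TPM in vehicle, at 58.7 and 62.4 TPM with Drug_0120 and at 51.7 and 56.4 TPM with Drug_CN27. Drug_0120 overlapped vehicle, and Drug_CN27 lay just below it. The difference was -0.038 (95% interval -0.19 to 0.12) with Drug_0120 and -0.20 ± 0.07 with Drug_CN27 (limma adjusted p = 0.616 and 0.0277). The Drug_0120 value became 0.31 with the GC correction and passed as higher (adjusted p = 0.000463). The Drug_CN27 call was lost without Drug_CN27 replicate 1 (-0.14, adjusted p = 0.115), without vehicle replicate 1 (-0.22, 0.0772) or 2 (-0.18, 0.129), and without a mean-variance trend (-0.20, 0.0511), and median-of-ratios scaling gave -0.37.

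The 6 proteases summed to 692 ± 19.6 TPM in vehicle, 429 ± 7.12 TPM with Drug_0120 and 683 ± 20.3 TPM with Drug_CN27. With Drug_CN27 the sums of the libraries (669 and 698 TPM) overlapped those of vehicle (678 and 706 TPM). LONP1, CLPX and YME1L1 were higher there, and CLPP, AFG3L2 and SPG7 lower. Over the 10 members the median log2 difference was -0.83 with Drug_0120 and -0.39 with Drug_CN27, beside -0.10 and 0.15 over all tested genes. Both comparisons use the same vehicle libraries.

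**Figure D2:**
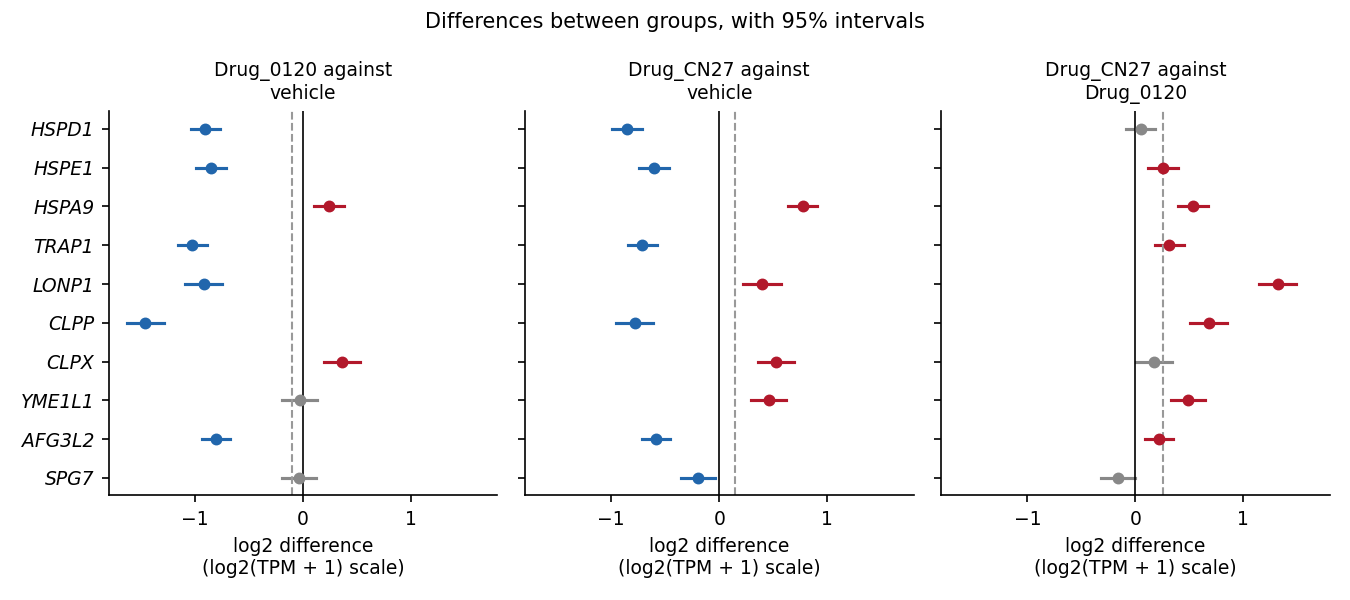
Log2 difference of each member (log2(TPM + 1) scale) with its 95% interval from the limma fit, for the 3 comparisons; red points were called higher, blue lower and grey neither, and the dashed line is the median of all tested genes. LONP1 lies at -0.92 in the first panel, 0.40 in the second and 1.32 in the third.

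Drug_CN27 was also compared with Drug_0120 directly, as 1 pair of compounds at doses that are not known to match. As deposited, 7 members were higher with Drug_CN27 and 0 lower, against 51.7% and 23.5% of all tested genes (75.2% in either direction), and the median tested gene was itself 0.26 log2 higher. With median-of-ratios scaling, which brings that median to -0.0046, 4 members were higher (HSPA9, LONP1, CLPP and YME1L1) and 2 lower (HSPD1 and SPG7), and quantile normalization and the GC correction gave 4 and 2 as well. The libraries did not overlap for 8 members higher and 1 lower, against 57.9% and 29.1% of tested genes, and a 2-fold difference was called for 1 member higher (LONP1) and 0 lower, against 17.7% and 3.97%. Only HSPA9, LONP1, CLPP and YME1L1 held their call in all of these settings. LONP1 differed most, at 2.51 times its Drug_0120 mean (log2 difference 1.32 ± 0.08, limma adjusted p = 1.03e-06; 1.03 with median-of-ratios scaling and 0.83 with the GC correction). CLPP differed by 0.68 ± 0.07, or 0.39 and 0.19 under those settings, HSPA9 by 0.53 ± 0.06 (0.24 and 0.35) and YME1L1 by 0.49 ± 0.07 (0.20 and 0.28).

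For the other members the compounds were not told apart under every scaling. HSPD1 differed by 0.049 (95% interval -0.087 to 0.18), CLPX by 0.17 (0.0013 to 0.34) and SPG7 by -0.16 (-0.32 to -0.0051), none of which passed (limma adjusted p = 0.474, 0.0633 and 0.0583). Without Drug_CN27 replicate 2, CLPX passed as higher (0.25, adjusted p = 0.0157) and SPG7 as lower (-0.22, 0.0223). HSPE1 (0.25 ± 0.06), TRAP1 (0.31 ± 0.06) and AFG3L2 (0.22 ± 0.06) passed as deposited and lost their calls with each of the other scalings, with values of -0.040, 0.021 and -0.067 under median-of-ratios scaling. HSPE1 also lost its call without Drug_0120 replicate 1 (0.20, adjusted p = 0.0505) and AFG3L2 without Drug_0120 replicate 2 (0.20, 0.058).

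A ratio between members within a library is not changed by scaling the library with 1 factor, though quantile normalization and the GC correction can change it. Of the ratios examined, 3 join partners of a complex. The ratio of HSPD1 to HSPE1 was 3.04 and 3.15 in vehicle, 3.15 and 2.85 with Drug_0120 and 2.68 and 2.52 with Drug_CN27. The chaperonin pair thus kept its vehicle proportion within the spread of the libraries under Drug_0120 and lay lower under Drug_CN27. The ratio of CLPP to CLPX was 5.68 and 6.40 in vehicle, 1.59 and 1.77 with Drug_0120 and 2.17 and 2.65 with Drug_CN27.

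For the matrix-facing membrane protease, AFG3L2 to SPG7 was 1.70 and 1.66 in vehicle, 1.02 and 0.929 with Drug_0120 and 1.35 and 1.21 with Drug_CN27. HSPA9 to HSPD1 was 0.373 and 0.377 in vehicle, 0.845 and 0.811 with Drug_0120 and 1.15 and 1.17 with Drug_CN27. LONP1 to CLPP was 1.09 and 1.08 in vehicle, 1.61 and 1.57 with Drug_0120 and 2.43 and 2.52 with Drug_CN27. In 4 of the 5 ratios the groups did not overlap, and in the other, HSPD1 to HSPE1, only Drug_0120 overlapped vehicle. The ratios are a description, with no test. They restate the member values above, so members that moved apart give separated ratios. The share of other gene pairs whose ratios do not overlap was not computed. CLPP transcripts are at 62.1% GC and CLPX transcripts at 41.8%, and with the GC correction the log2 difference from vehicle under Drug_0120 was -0.92 for CLPP (-1.46 as deposited) and 0.29 for CLPX (0.36).

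**Figure D3:**
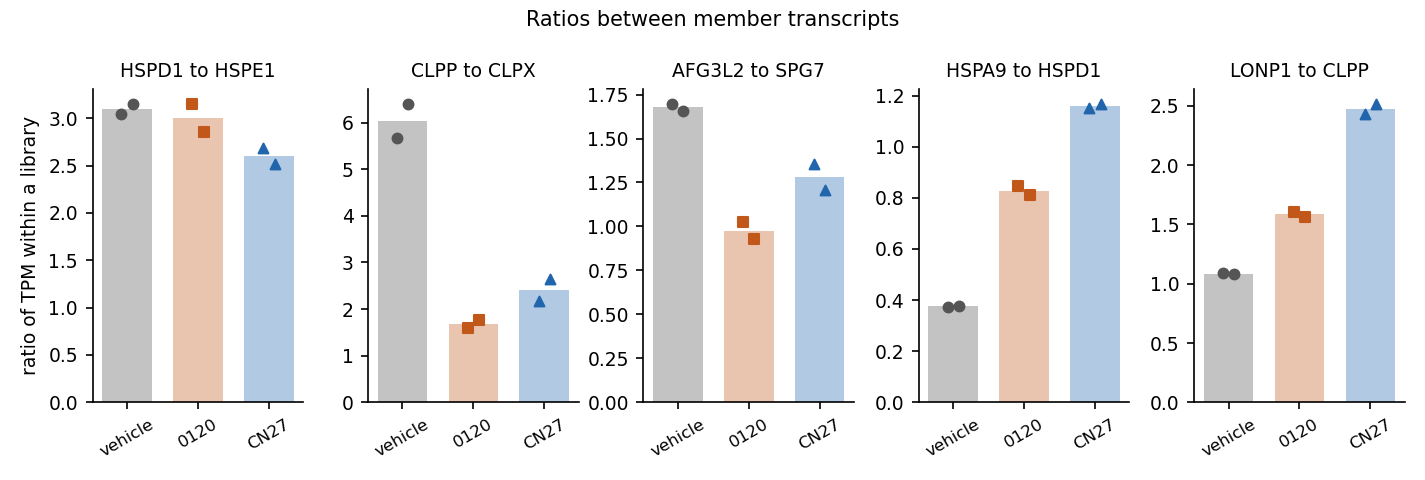
Ratio of TPM between members within each library (points) with the group mean (bars), on axes that start at 0. The ratio of CLPP to CLPX falls from a mean of 6.04 in vehicle to 1.68 and 2.41 with the compounds, while HSPA9 to HSPD1 rises from 0.375 to 0.828 and 1.16.

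Partners of the members moved in both directions. Of 13 such genes, 3 were higher and 7 lower with Drug_0120, and 5 were higher and 7 lower with Drug_CN27 (2 and 7 with median-of-ratios scaling). The list medians were -0.55 and -0.34, beside -0.10 and 0.15 over all genes. For this and the lists that follow, the shares of all tested genes were 36.0% higher and 45.5% lower with Drug_0120 and 43.7% higher and 26.6% lower with Drug_CN27. The nucleotide exchange factors of HSPA9 parted. GRPEL2 rose from 20.1 and 18.5 TPM in vehicle to 48.3 and 48.1 TPM with Drug_0120 and 46.7 and 40.0 TPM with Drug_CN27 (1.28 ± 0.09 and 1.12 ± 0.09 log2). GRPEL1 was at 57.0 and 55.7 TPM in vehicle, at 53.4 and 58.8 TPM with Drug_0120 and at 34.4 and 34.4 TPM with Drug_CN27, and only the last passed the test (-0.69 ± 0.07, limma adjusted p = 3.46e-05). Of the import motor, TIMM44, which tethers HSPA9 to the channel, rose by 0.28 ± 0.06 log2 with Drug_0120 (0.54 with quantile normalization, 0.76 with the GC correction) and 0.33 ± 0.06 with Drug_CN27 (not called with median-of-ratios scaling, 0.16). PAM16, another motor subunit, fell by 0.997 ± 0.06 (0.54 with the GC correction) and 0.56 ± 0.06. The J-protein DNAJC19 fell by 0.20 ± 0.07 with Drug_0120 (a call lost with median-of-ratios scaling, -0.083) and rose by 0.63 ± 0.07 with Drug_CN27 (0.35 with the GC correction). DNAJA3, a J-protein that works with HSPA9, fell by 0.65 ± 0.06 (0.43 with quantile normalization) and 0.34 ± 0.06.

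PHB and PHB2, the prohibitins that form ring complexes with AFG3L2, fell with both compounds. PHB went from 280 and 306 TPM to 84.9 and 89.3 TPM with Drug_0120 and to 154 and 161 TPM with Drug_CN27, and PHB2 from 465 and 507 TPM to 180 and 190 TPM and to 311 and 327 TPM. STOML2, a membrane scaffold for YME1L1, fell by 0.69 ± 0.07 (0.37 with quantile normalization) and 0.46 ± 0.07 log2. CLUH, which binds mRNAs of mitochondrial proteins, fell by 1.002 ± 0.07 (-0.43 with the GC correction) and 1.26 ± 0.07.

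Other mitochondrial chaperones and assembly factors, 11 tested genes, were 2 higher and 6 lower with Drug_0120 and 3 higher and 6 lower with Drug_CN27 (medians -0.68 and -0.45). ISCU, the scaffold for iron-sulfur clusters, had the largest moderated t among those that rose with each compound (0.70 ± 0.06 and 0.66 ± 0.06 log2), and PPIF, cyclophilin D, among those that fell (-1.36 ± 0.06, or -0.77 with the GC correction, and -1.63 ± 0.06). Other mitochondrial proteases and peptidases, 16 genes, were 2 higher and 11 lower with Drug_0120 and 4 higher and 10 lower with Drug_CN27, or 0 and 11 with median-of-ratios scaling (medians -0.65 and -0.35). MIPEP, the intermediate peptidase that trims imported precursors, fell from 35.2 and 35.2 TPM to 9.05 and 9.03 TPM with Drug_0120 and to 13.97 and 12.6 TPM with Drug_CN27. XPNPEP3, which removes residues at the front of imported proteins, rose by 1.11 ± 0.09 log2 with Drug_0120.

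**Figure D4:**
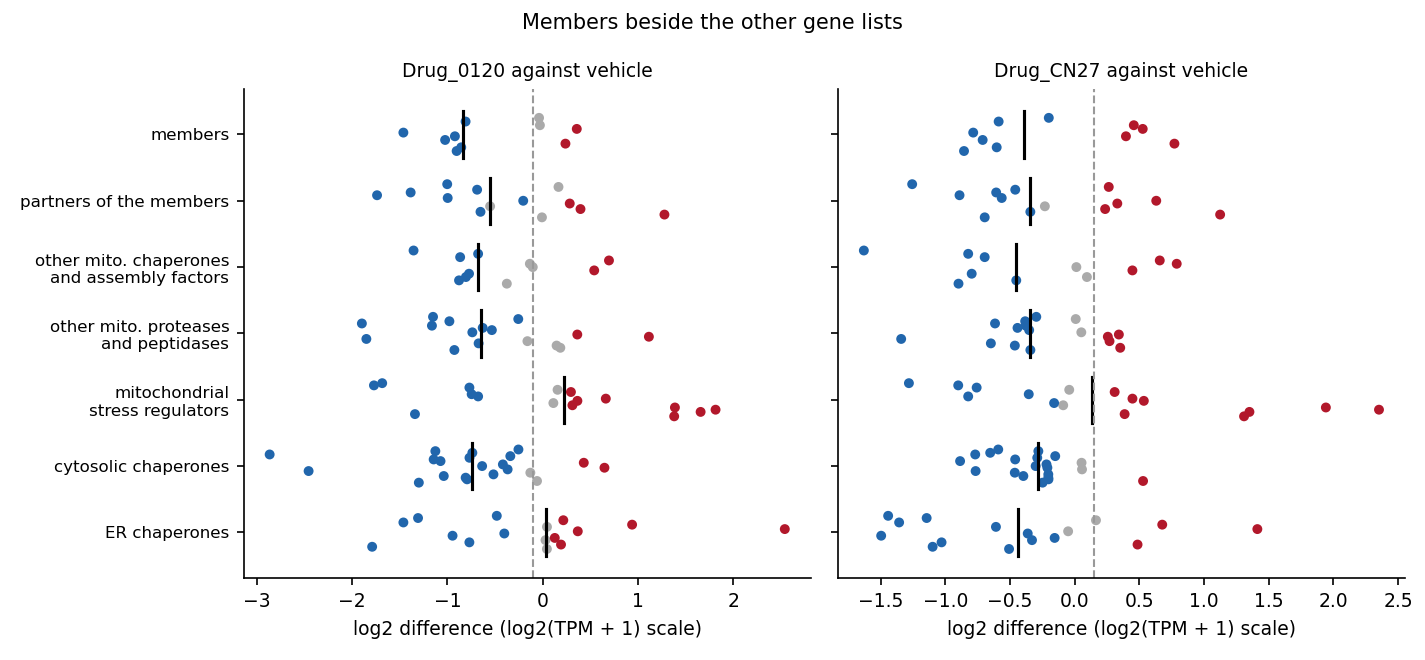
Log2 difference from vehicle (log2(TPM + 1) scale) of each gene, by list, with the list median as a black line; red points were called higher, blue lower and grey neither, and the dashed line is the median of all tested genes. The members' median is -0.83 with Drug_0120 and -0.39 with Drug_CN27, and the cytosolic chaperones' median is -0.74 and -0.28.

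Chaperones of the other compartments gave the nearest comparison. Of 21 cytosolic chaperones, 2 were higher and 17 lower with Drug_0120 (36.0% and 45.5% of all tested genes) and 1 higher and 18 lower with Drug_CN27 (43.7% and 26.6%; medians -0.74 and -0.28). With quantile normalization, 14 were lower with Drug_0120 and 15 with Drug_CN27. CCT5, a subunit of the cytosolic chaperonin and so a relative of HSPD1 in function, had the largest fall of this list with Drug_0120. It went from 223 and 226 TPM to 31.1 and 28.7 TPM. TCP1, another subunit, fell by 0.89 ± 0.06 log2 with Drug_CN27. Against the trend of the list, DNAJB1 rose by 0.65 ± 0.05 with Drug_0120 and HSPA4 by 0.53 ± 0.06 with Drug_CN27. Of 16 chaperones of the endoplasmic reticulum, 6 were higher and 7 lower with Drug_0120 (8 and 7 with median-of-ratios scaling, 9 and 6 with quantile normalization) and 3 higher and 11 lower with Drug_CN27 (medians 0.037 and -0.43). DNAJB9, a cochaperone of the Hsp70 there, rose by 2.54 ± 0.10 and 1.41 ± 0.10, HSP90B1, its Hsp90, fell by 1.79 ± 0.06 with Drug_0120, and PDIA4, a disulfide isomerase, fell by 1.495 ± 0.05 with Drug_CN27. No difference between these lists and the members was tested.

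Regulators linked to mitochondrial stress and biogenesis, 16 tested genes, were 8 higher and 6 lower with each compound, with medians of 0.23 and 0.13 beside -0.10 and 0.15 over all tested genes. With Drug_CN27 the median was -0.029 with median-of-ratios scaling and -0.11 with the GC correction. ATF4 rose from 458 and 475 TPM to 1198 and 1235 TPM with Drug_0120 and to 1119 and 1198 TPM with Drug_CN27. DDIT3 rose by 1.66 ± 0.07 and 1.35 ± 0.07 log2, and CEBPB, which pairs with such factors, by 1.81 ± 0.07 and 2.35 ± 0.07. ATF5 was at 47.0 and 51.3 TPM in vehicle, at 19.0 and 18.6 TPM with Drug_0120 and at 63.7 and 65.2 TPM with Drug_CN27, lower than vehicle under the first compound and higher under the second, as LONP1 was. Its differences were -1.34 ± 0.07 (-0.79 with the GC correction) and 0.39 ± 0.07 (0.22 with median-of-ratios scaling), with limma adjusted p = 2.87e-07 and 0.00107. A link between ATF5 and LONP1 was not tested.

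HSF1, the main heat shock factor, rose by 0.36 ± 0.08 (0.57 with quantile normalization, 0.96 with the GC correction) and 0.54 ± 0.08, and HSF2 by 0.66 ± 0.08 and 0.45 ± 0.08 (the second 0.28 with median-of-ratios scaling and 0.17 with the GC correction). MYC, whose E-box letters stand in the windows of HSPD1, HSPE1, HSPA9 and LONP1, fell from 232 and 226 TPM to 69.4 and 71.7 TPM with Drug_0120 and to 89.5 and 97.9 TPM with Drug_CN27. Of these 4 members, HSPD1 and HSPE1 fell with both compounds, HSPA9 rose with both and LONP1 moved in both directions. Whether MYC has a part in these values was not tested. PPARGC1B and ESRRA, which drive mitochondrial biogenesis, fell by 1.77 ± 0.11 and 0.77 ± 0.08 with Drug_0120 (ESRRA -0.18 with the GC correction) and by 0.90 ± 0.11 and 0.76 ± 0.08 with Drug_CN27. NRF1, in the same list, fell by 0.75 ± 0.08 and 0.35 ± 0.08. GABPA rose by 0.30 ± 0.12 (a call lost with the GC correction) and 0.31 ± 0.12. Both calls lay just under the threshold (limma adjusted p = 0.0481 and 0.047). TFAM was called with neither compound as deposited (0.16 and -0.042). With Drug_0120 it was called higher with median-of-ratios scaling (0.27) and quantile normalization (0.26), and not with the GC correction (0.043).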

How the data were processed

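RNA of 22Rv1 cells was sequenced from poly(A) libraries. The authors deposited TPM values per gene with 1 column per library; STAR, StringTie and hg19 are named per the submitters' processing notes, without versions, and annotation, strand setting and filters are not stated there. The table had 20315 rows, of which 18 second copies of genes were left out. TPM keeps no depth. Values were tested as log2(TPM + 1) for 13606 genes that reached 1 TPM in 2 or more libraries, with limma 3.58.1 in R 4.3.3 (mean-variance trend, all 6 libraries in 1 fit, no replicate block). P-values were adjusted by Benjamini-Hochberg across the 13606 genes and called under 0.05; the fit was tested on simulated data. The fit had 3 residual and 5.33 prior degrees of freedom. Whether replicates were separate cultures is not stated, and the p-values reflect the variation among these libraries, which may be technical. The members and lists were chosen with earlier results of these data known. All 10 members are named. From each other list the called gene with non-overlapping libraries and the largest moderated t in each direction was eligible, for each compound, and partners and regulators could all be named. Alternatives were other pseudocounts (0.1 and 5), no filter, median-of-ratios and quantile scaling, no trend, only the groups compared, a replicate block, a lowess correction on transcript GC content (GENCODE release 29, median over a gene's transcripts) and leaving out each library. Promoter windows are from RefSeq on GRCh38.p14, another build than the table's, so no gene coordinates are given.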

Additional observations from a re-analysis of the deposited data

How the results depend on the processing

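Over 15 alternatives, 7 members kept direction and call with Drug_0120 against vehicle, 9 with Drug_CN27 against vehicle and 4 between the compounds; of 450 values 411 did. With Drug_0120, YME1L1 turned positive with median-of-ratios scaling (0.093) and quantile normalization (0.18), and SPG7 with these (0.084 and 0.098) and with the GC correction (0.31). When each library was left out, YME1L1 ranged from -0.072 to 0.013 (0.0020 without vehicle replicate 1) and SPG7 from -0.082 to 0.0054. The count of members higher with Drug_0120 then ranged from 1 to 2, the 1 being without Drug_0120 replicate 1, where HSPA9 lost its call. With the GC correction 3 were higher and 7 lower, SPG7 and YME1L1 being added. Between the compounds, median-of-ratios scaling, quantile normalization and the GC correction each gave 4 higher and 2 lower. HSPD1 then turned to -0.25, -0.19 and -0.14, and CLPX to -0.12, -0.012 and -0.033. HSPE1 turned to -0.040 and -0.068 with the first 2, AFG3L2 to -0.067 with the first and TRAP1 to -0.088 with the GC correction. Leaving out each library, HSPD1 ranged from -0.013 to 0.11 and the count of lower members from 0 to 1, the 1 being SPG7 without Drug_CN27 replicate 2. The cause of these changes was not tested. A library left alone in its group is assumed to vary like the others.

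Deviations of same-numbered libraries from their group means correlated across genes at r = 0.16, 0.15 and 0.11 between groups, and the members' replicates parted alike in the groups. With 2 numbers and no label that ties them to a culture or day, this does not show whether they are paired. With the number as a replicate block, the counts of members were as reported against vehicle; between the compounds 1 was lower (SPG7, adjusted p = 0.0142) and CLPX was called higher (0.0237). The unknown depth prevents counting intervals.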

Other observations

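Within groups, the members' replicates parted by GC content, a split chosen after the values were seen. For the 4 members with transcripts above 50% GC (TRAP1, LONP1, CLPP and SPG7), the library numbered 2 had the higher TPM in 12 of 12 comparisons. For the other 6 members, the library numbered 1 was higher in 17 of 18, HSPE1 with Drug_0120 being the exception. These comparisons reuse the same few pairs of libraries and are not independent. The share over all tested genes was not computed, so whether the split is particular to the members is not known. The differences between replicates were at most 0.18 in size on the log2 scale (LONP1 with Drug_CN27, -0.18), smaller than every called difference of a member from vehicle.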
